A study of Homo sapiens with 5 samples.

Results

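Linker and core histone genes were followed in a human breast cancer cell line exposed to a histone deacetylase inhibitor. The genes were chosen by symbol alone, as those beginning H1-, H2AC, H2AZ, H2AX, H2AJ, H2BC, H3C, H3-, H4C or MACROH2A that had at least 1 array probe set listed for that gene and no other. This gave 54 genes of the 19775 tested, read by 78 probe sets (sets of short probes against 1 transcript region), and where a gene had several, the brightest by its mean over the 5 arrays was used. Of the 54 genes, 44 were classed as replication-dependent and 10 as variant. A further 28 probe sets listed for several histone genes are described separately. The prefixes also matched 3 pseudogenes (H1-9P, H2AC5P and H4C10P) and the antisense gene H1-10-AS1, which were not counted as members. H3-3B, H3-5 and H3-7 had no probe set of their own in the annotation used and were not analysed here as single genes.

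MDA-MB-231 is an established human breast cancer line of mesenchymal character that lacks oestrogen and progesterone receptors. SAHA (vorinostat) is a hydroxamate inhibitor of histone deacetylases, the enzymes that take acetyl groups off histones, and DMSO is its vehicle. Total RNA was measured on 5 single-colour arrays, 3 from cells of this line given DMSO and 2 from cells given SAHA at 2 uM, all collected after 30 h. All arrays came from 1 line with no genetic change described. The extraction text in the labels speaks of a transfection of which the other labels say nothing, so whether the cells were transfected is not known. The labels do not say that the replicates were separate cultures. P-values therefore cover the array-to-array spread alone, and that spread may be technical.

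Histones package DNA. Pairs of the core histones H2A, H2B, H3 and H4 form the nucleosome, and linker histone H1 binds where DNA enters and leaves it. Replication-dependent histone genes lie mostly in clusters, many as divergent H2A and H2B pairs, and are transcribed in S phase to supply new chromatin. Their messages normally end in a stem-loop bound by SLBP instead of a poly(A) tail, although several of these genes are also known to give polyadenylated transcripts. Variant histone genes, which mostly stand alone and make polyadenylated messages, are expressed in and out of S phase and serve particular sites or tasks. The labelling kit named in the labels primes from poly(A) tails, so the array level of a replication-dependent gene need not follow that of its stem-loop message. Histone genes of a family are also near-identical in their coding parts. Array probe sets named with the ending _x_at or _s_at may match more than 1 gene or transcript. They are termed shared-sequence probe sets below.

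Median intensity lay between 88.8 and 91.2 on the 5 arrays, and the number of arrays limits the precision. On DMSO 1 the actin control probe sets differed by 3.29 on the log2 scale between the 3' and 5' ends of the message, against 2.04 to 2.22 on the other arrays. The 24 probe sets for polyadenylated control RNAs were higher on the SAHA arrays, with a median log2 difference of 0.39. Of 10 mesenchymal breast line markers, 9 lay above the 40th percentile of all genes, with VIM at a mean log2 intensity of 13.97 in DMSO, and 4 fell and 0 rose after SAHA. Their summed intensity was 83300 to 85005 on the DMSO arrays and 69799 to 76596 on the SAHA arrays. Of 10 luminal breast markers, 6 lay above that percentile, among them KRT18 (13.51), KRT8 (11.68) and EPCAM (10.28), while the receptor gene PGR (4.49) and the luminal factor FOXA1 (5.18) were low and ESR1 read 7.01. CDH1 rose, EPCAM, ERBB2 and GATA3 fell, and the luminal sum was 17236 to 18486 in DMSO and 18840 to 21634 in SAHA. Of 5 measured leukocyte markers 2 rose, CD14 and HLA-DRA, and PTPRC, which defines leukocytes and read 3.78 in DMSO, fell. The leukocyte sum was 807 to 923 on the DMSO arrays and 1173 to 1196 on the SAHA arrays. The summed intensity of 6 endothelial or stromal markers was 941 to 963 in DMSO and 969 to 991 in SAHA.

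Of the 54 histone genes, 13 rose after SAHA, 2 fell and 39 were not called by limma (adjusted p under 0.05, Benjamini-Hochberg). Of all 19775 genes, 14.0% rose, 15.6% fell and 29.6% were called in either direction. The median log2 fold of the 54 genes was -0.01, beside -0.03 for all genes. The share of histone genes called in either direction, 27.8%, was therefore near the background, though most of the calls were rises under the deposited normalization. The largest changes were in a few genes: H2BC5, H4C8 and H1-2 rose by more than a log2 unit, and H2AX fell by about as much. Both SAHA arrays lay above every DMSO array for 14 of the 54 genes and below every DMSO array for 13, where 22.1% and 26.0% of all genes did so. In bulk RNA, fewer cells that express a gene and less of its RNA per cell cannot be told apart.

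The shares of genes called were 27.3% in the replication-dependent class and 30.0% in the variant class. Of the 44 replication-dependent genes, 11 rose, 1 fell and 32 were not called, with a median log2 fold of -0.00 and a range of -0.46 to 1.89. Without SAHA 1, 6 rose and 2 fell, without SAHA 2, 7 rose and 3 fell, and without DMSO 2, 0 fell. Of the 10 variant genes, 2 rose, 1 fell and 7 were not called, with a median of -0.11. In this class 1 gene rose without SAHA 1 or any 1 DMSO array, 0 rose without SAHA 2, and 2 fell without SAHA 1, H2AX and H2AZ1. Shares of all genes called in the fits that lack an array are not given here, so these counts cannot be set against a background. The split between directions depended on scaling. Centring the arrays on the polyadenylated control RNAs moved the median of all genes from -0.03 to -0.40, after which 6 replication-dependent genes were called higher and 30 lower, and 1 variant gene higher and 7 lower. Among the 30 was H2AC4, which read 6.70 on every array as deposited, so a lower call here need not be a fall. Shares of all genes called under this centring are not given here, so the counts cannot be set against a background. H2AC17 (0.17), H2BC6 (0.20), H2BC9 (0.25), H2BC12L (0.23) and H2AJ (0.10) were then no longer called. Directions below are relative to the deposited normalization. Whether the classes differed was not tested, because genes are not replicates of a condition.

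**Figure D1:**
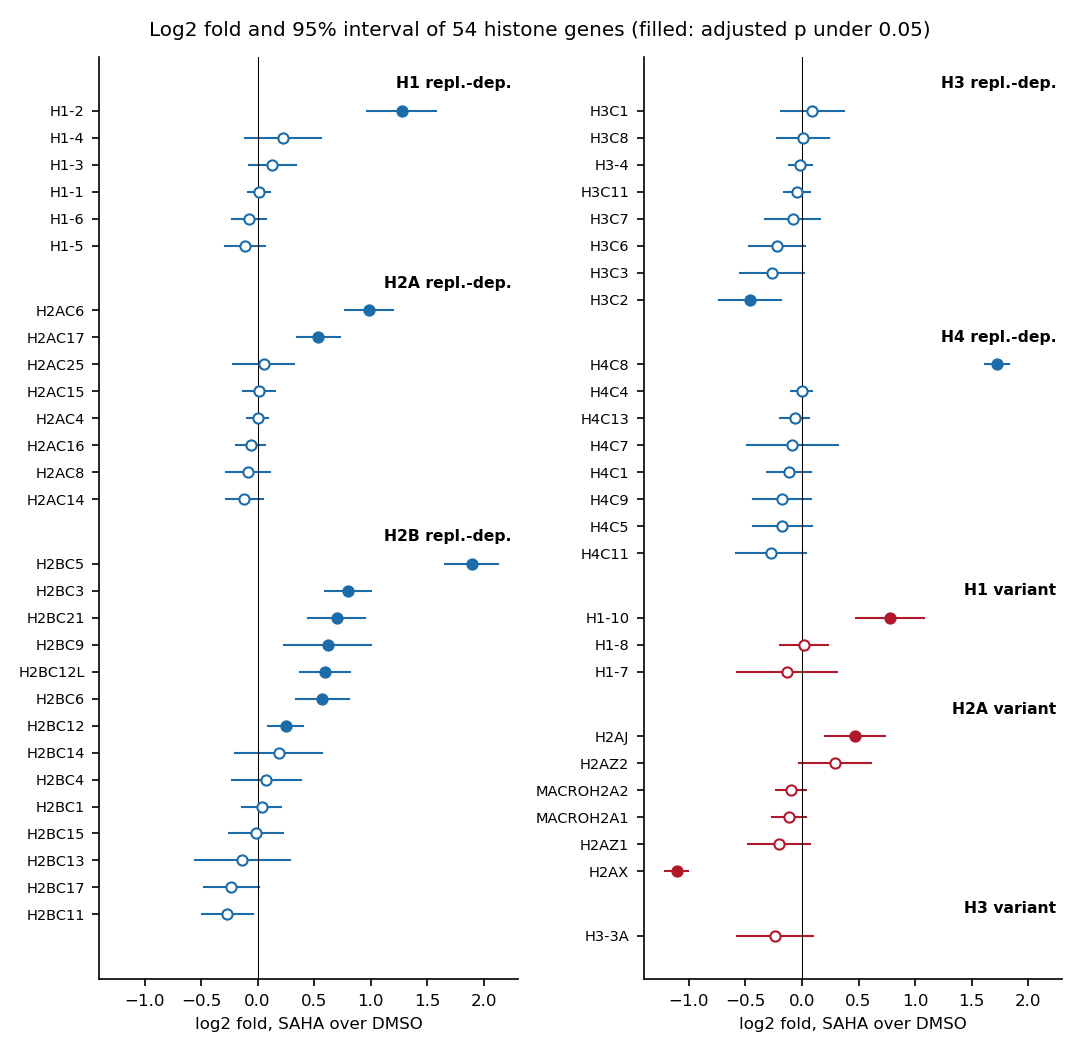
Log2 fold, SAHA over DMSO, of the 54 histone genes by family (repl.-dep., replication-dependent), with lines for the 95% interval of the limma fit to 3 DMSO and 2 SAHA arrays. Filled points passed adjusted p under 0.05 over all 19775 genes. Under the deposited normalization 7 of 14 H2B genes and 0 of 8 H3 genes were higher, where 14.0% of all genes were. Below the 40th percentile of all genes in level lay 8 of these H2B and 6 of these H3 genes. Under centring on the polyadenylated controls 3 H2B genes were higher.

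The calls among the replication-dependent genes are given by family, where 14.0% of all genes rose and 15.6% fell. H2B genes accounted for 7 of the 11 that rose, out of 14 H2B genes measured, with a family median log2 fold of 0.22. Of 8 H2A genes 2 rose, of 6 H1 genes 1 rose, and of 8 H4 genes 1 rose, with 0 lower in each of these families. Under centring on the polyadenylated controls 3 H2B genes rose and 6 fell, and the H2B median was -0.16. Of 8 H3 genes 0 rose and 1 fell under the deposited normalization, with a median of -0.06. Dim genes, below the 40th percentile of all genes, were 6 of the H3, 5 of the H4 and 8 of the H2B genes. They were also 5 of the H2A and 4 of the H1 genes. Of all dim genes, 7.79% were called in either direction. Of the 7 H2B genes that rose, 5 were read by shared-sequence probe sets, so the H2B count is not one of 7 separate messages. By position, 40 of the 44 genes lie on chromosome 6, of which 9 rose and 1 fell. The others are 3 genes on chromosome 1, of which H2BC21 rose, and H2BC12L on chromosome 21, which rose.

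The sequences before the start sites of 6 genes that rose are shown, because these genes had the largest folds or share their promoter with a measured neighbour. They are from RefSeq (GRCh38.p14), run 5′ to 3′ on the gene's strand and end just before the annotated start, with the far end cut where a neighbouring gene begins. Capitals mark CCAAT (the CCAAT box), TATAAA (the TATA box), ATTTGCAT (the octamer bound by OCT1), AAACACA (the H1 box) and GGTCCG (a part of the H4 promoter element), each on either strand, with no overlap between matches.
H2BC5, chr6:26157871-26158120, plus strand: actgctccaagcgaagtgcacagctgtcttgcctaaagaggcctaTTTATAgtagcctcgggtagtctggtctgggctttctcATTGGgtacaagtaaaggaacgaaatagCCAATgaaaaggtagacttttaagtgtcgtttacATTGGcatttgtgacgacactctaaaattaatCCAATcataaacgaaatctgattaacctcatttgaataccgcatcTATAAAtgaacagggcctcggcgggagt
H4C8, chr6:26285535-26285679, minus strand: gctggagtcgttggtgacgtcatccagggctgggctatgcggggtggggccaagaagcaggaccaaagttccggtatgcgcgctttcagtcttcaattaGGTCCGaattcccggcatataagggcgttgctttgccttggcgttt
H1-2, chr6:26056471-26056720, minus strand: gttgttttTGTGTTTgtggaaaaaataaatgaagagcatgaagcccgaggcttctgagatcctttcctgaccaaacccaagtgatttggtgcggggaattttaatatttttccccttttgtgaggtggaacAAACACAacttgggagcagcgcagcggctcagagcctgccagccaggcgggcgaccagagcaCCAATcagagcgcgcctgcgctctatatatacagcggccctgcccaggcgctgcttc
H2AC6, chr6:26123927-26124171, plus strand: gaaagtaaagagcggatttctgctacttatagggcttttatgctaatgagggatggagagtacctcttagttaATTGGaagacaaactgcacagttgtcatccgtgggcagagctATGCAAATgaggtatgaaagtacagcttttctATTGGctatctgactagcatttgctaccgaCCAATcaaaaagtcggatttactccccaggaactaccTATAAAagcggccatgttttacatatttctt
H2AC17, chr6:27893186-27893424, minus strand: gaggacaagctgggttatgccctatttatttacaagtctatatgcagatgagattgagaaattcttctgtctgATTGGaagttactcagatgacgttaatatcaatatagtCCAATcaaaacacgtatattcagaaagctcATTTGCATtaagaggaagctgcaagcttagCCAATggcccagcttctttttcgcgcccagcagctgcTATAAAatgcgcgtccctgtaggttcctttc
H2BC3, chr6:26043714-26043899, minus strand: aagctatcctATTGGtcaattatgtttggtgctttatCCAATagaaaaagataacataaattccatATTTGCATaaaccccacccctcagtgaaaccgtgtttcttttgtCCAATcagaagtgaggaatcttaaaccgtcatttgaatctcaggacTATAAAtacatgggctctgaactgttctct

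H2BC5, which encodes an H2B core histone, had the highest fold of the 54. Its log2 intensity was 10.80, 10.93 and 11.00 on the DMSO arrays and 12.71 and 12.90 on the SAHA arrays, with a log2 fold of 1.89 ± 0.09 (SE; adjusted p = 0.000656 by limma). The groups were far apart relative to the spread within each. A second probe set for this gene also rose, by 0.91 ± 0.11 (SE; adjusted p = 0.0112 by limma over 54613 probe sets). Both are shared-sequence probe sets, so part of either reading can come from other H2B genes, and the size of the rise differed by more than 1.5 times between them. The H2BC5 promoter shown above holds CCAAT and TATAAA and no ATTTGCAT.

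H4C8 encodes histone H4, a protein that many gene copies specify alike. It read 7.12, 7.15 and 7.13 on the DMSO arrays and 8.89 and 8.83 on the SAHA arrays, a log2 fold of 1.73 ± 0.04 (SE; adjusted p = 0.000413 by limma). The DMSO arrays agreed closely, and both SAHA arrays lay well above them. Its other probe set rose as well, from 6.59, 6.79 and 6.64 to 8.17 and 8.08, by 1.45 ± 0.08 (SE; adjusted p = 0.00202 by limma over all probe sets). Of the 8 single-gene H4 entries it was the 1 that rose. The GGTCCG letters in its promoter also stood in 5 of the 6 other H4 genes that had a promoter window, so they do not set it apart from H4 genes that were not called.

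H1-2, a linker histone expressed in most cell types, was the 1 of 6 replication-dependent H1 genes called. It read 10.65, 10.57 and 10.91 on the DMSO arrays and 11.95 and 12.02 on the SAHA arrays, a log2 fold of 1.28 ± 0.12 (SE; adjusted p = 0.00233 by limma). The groups did not overlap. Its probe set is not of the shared-sequence kind. The linker genes H1-4 (0.22), H1-3 (0.13), H1-1 (0.01), H1-5 (-0.11) and H1-6 (-0.07), the last a testis linker histone, were not called, with limma adjusted p-values of 0.282 to 0.809. All 6 hold AAACACA in their promoter window.

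H2AC6 and H2AC17 were the H2A genes that rose. H2AC6 read 9.87, 9.75 and 9.74 on the DMSO arrays and 10.87 and 10.68 on the SAHA arrays, a log2 fold of 0.98 ± 0.08 (SE; adjusted p = 0.00182 by limma) on a shared-sequence probe set. H2AC17 read 7.01, 6.99 and 7.07 on the DMSO arrays and 7.47 and 7.66 on the SAHA arrays, a log2 fold of 0.54 ± 0.07 (SE; adjusted p = 0.00715 by limma). In both genes the SAHA arrays lay above all DMSO arrays. The call of H2AC17 ended with the replicate number as a block (limma adjusted p = 0.0674). The other 6 H2A genes had log2 folds of -0.12 (H2AC14) to 0.05 (H2AC25) and were not called.

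Besides H2BC5, 6 H2B genes rose. H2BC3 read 6.37, 6.42 and 6.40 on the DMSO arrays and 7.31 and 7.09 on the SAHA arrays, a log2 fold of 0.80 ± 0.08 (SE; adjusted p = 0.00273 by limma) from a dim level. H2BC21, which lies on chromosome 1, read 6.60, 6.75 and 6.47 on the DMSO arrays and 7.26 and 7.36 on the SAHA arrays, a log2 fold of 0.70 ± 0.10 (SE; adjusted p = 0.00744 by limma). In both genes the groups were separate, with the low readings all in DMSO. The call of H2BC3 ended with the replicate number as a block. The call of H2BC21 ended without SAHA 1 or SAHA 2, with limma adjusted p-values of 0.0620 and 0.0675. Shared-sequence probe sets read H2BC21 and also H2BC9 (0.62), H2BC12L (0.60) and H2BC6 (0.57). The last 3 rose by similar amounts. H2BC9 read 8.37, 8.76 and 8.80 in DMSO and 9.25 and 9.28 in SAHA, and its call ended without any 1 of DMSO 2, DMSO 3, SAHA 1 or SAHA 2. H2BC12L read 11.18, 11.34 and 11.43 in DMSO and 11.92 and 11.90 in SAHA, and its call ended without SAHA 1 or SAHA 2. H2BC6 read 9.56, 9.72 and 9.83 in DMSO and 10.28 and 10.27 in SAHA, and its call ended without DMSO 2, SAHA 1 or SAHA 2. These 3 readings may share a source. In each of them DMSO 1 was the lowest array.

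H2BC12 had the highest array signal of the H2B genes and the smallest change called. It read 13.33, 13.22 and 13.23 on the DMSO arrays and 13.56 and 13.46 on the SAHA arrays, a log2 fold of 0.25 ± 0.06 (SE; adjusted p = 0.0367 by limma). DMSO 1 was the highest of the DMSO arrays and lay nearest to SAHA 2, and the call ended without any 1 of DMSO 2, DMSO 3, SAHA 1 or SAHA 2. With the arrays centred on the polyadenylated control RNAs the log2 fold was -0.12, on the other side of 0. The call also ended with quantile normalization run again (limma adjusted p = 0.0676) and with centring on ribosomal protein genes (limma adjusted p = 0.0647). With the replicate number as a block it ended too (limma adjusted p = 0.115). The 7 H2B genes not called ran from -0.27 (H2BC11) to 0.19 (H2BC14).

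**Figure D2:**
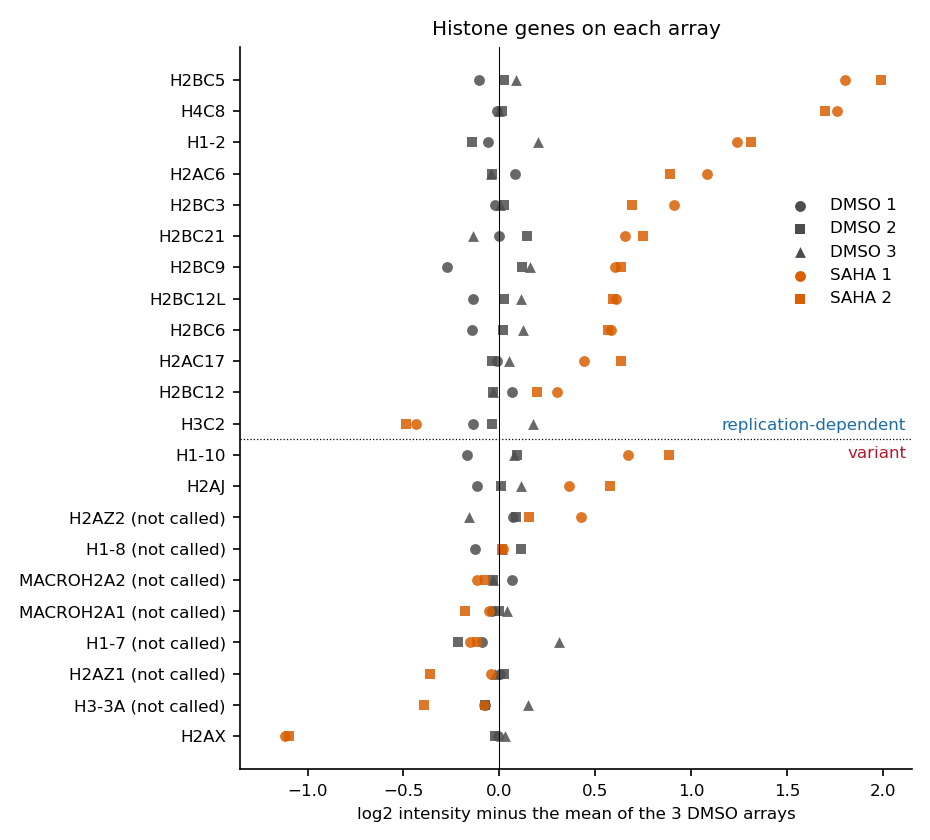
Log2 intensity of each called histone gene and each variant gene on each array, minus the mean of the 3 DMSO arrays (grey, DMSO; orange, SAHA; marker shape, replicate number). H2BC5, H4C8 and H1-2 stand more than 1 log2 unit above DMSO on both SAHA arrays, and H2AX more than 1 unit below.

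H3C2 was the replication-dependent gene that fell. It read 6.66, 6.76 and 6.97 on the DMSO arrays and 6.37 and 6.31 on the SAHA arrays, a log2 fold of -0.46 ± 0.10 (SE; adjusted p = 0.0320 by limma) on a dim, shared-sequence probe set. The call ended without DMSO 2, SAHA 1 or SAHA 2. H3C8, the replication-dependent H3 gene with the highest signal, read 7.30, 7.44 and 7.56 in DMSO and 7.44 on both SAHA arrays, so the groups overlapped fully (log2 fold 0.01 ± 0.09, SE; adjusted p = 0.963 by limma). H4C11, the replication-dependent H4 gene with the highest signal in DMSO, read 8.84, 8.89 and 8.99 in DMSO and 8.46 and 8.80 in SAHA, a log2 fold of -0.27 ± 0.12 (SE; adjusted p = 0.169 by limma). Both SAHA arrays lay below DMSO, but SAHA 2 by little.

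Most replication-dependent genes had a low array signal. Of the 44 replication-dependent genes, 28 were dim, meaning a mean log2 intensity below the 40th percentile of all genes (6.86). Of these 28, H2BC3 rose, H3C2 fell and 26 were not called. Of the 16 others, 10 rose, 0 fell and 6 were not called, with a median log2 fold of 0.56, where 20.0% of all genes above that level rose and 24.1% fell. Shared-sequence probe sets read 9 of the 16 and 6 of the 10 that rose, so the 10 may not be separate messages. H2BC21 is among the 16, and the 10 that rose, through its SAHA arrays, since its DMSO mean was 6.61. Of all dim genes, 7.79% were called in either direction. For 4 of the dim histone genes, such as H2AC4 and H1-1, the reading was equal on all DMSO arrays, and how far such readings lie above background is not known. A gene not called there was not shown to be stable.

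**Figure D3:**
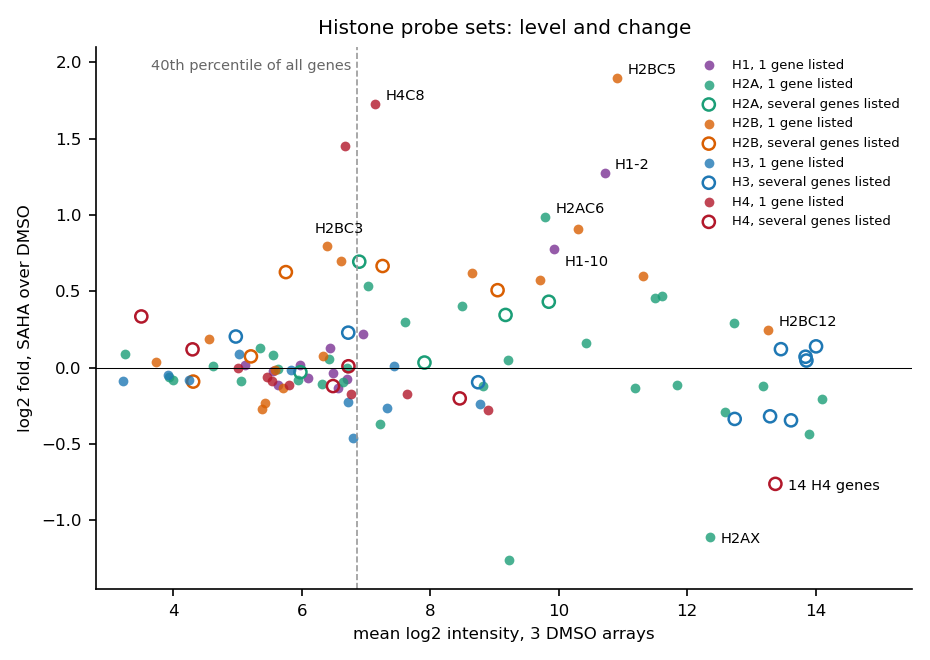
Mean log2 intensity on the DMSO arrays (horizontal axis) and log2 fold, SAHA over DMSO (vertical axis), of 78 probe sets listed for 1 histone gene (filled) and 28 listed for several (open), coloured by family. Intensities of different probe sets depend on their probes as well as on RNA. The open H4 point at 13.37 lies at -0.76, and the filled H4C8 point at 7.13 lies at 1.73.

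Probe sets listed for several histone genes cannot be assigned to 1 gene, and they gave a mixed picture. Of the 28, fitted with all 54613 probe sets, 4 were called higher and 4 lower, where 9.01% of all probe sets were higher and 9.05% lower. One H4 probe set, listed for 14 H4 genes with H4C8 among them, read 13.38, 13.38 and 13.36 on the DMSO arrays and 12.49 and 12.73 on the SAHA arrays, and fell by 0.76 ± 0.08 (SE; adjusted p = 0.00774 by limma). This H4 reading moved opposite to that of H4C8 on its own 2 probe sets. Of the other 5 H4 probe sets, 0 were called, with log2 folds of -0.20 to 0.34. The 3 probe sets listed for H2BC4, H2BC6, H2BC7, H2BC8 and H2BC10 all rose, by 0.51, 0.67 and 0.63. One of the probe sets listed for H2AC11, H2AC12, H2AC13, H2AC15, H2AC16 and H2AC17 rose by 0.69, and the other read 0.03. The 2 probe sets listed for 10 H3 genes read 0.23 and 0.20 and were not called.

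In RefSeq's order of genes, 11 pairs of an H2A and an H2B gene stand head to head, and both partners were measured in 4. In the pairs with a gene that rose, the partner was not called on its single-gene probe set. H2AC6 rose by 0.98 while H2BC4, which lies 245 bases away across the promoter shown above, read 6.29, 6.19 and 6.49 in DMSO and 6.29 and 6.50 in SAHA (log2 fold 0.07 ± 0.12, SE; adjusted p = 0.674 by limma). H2AC17 rose by 0.54 while H2BC17, across 239 bases, read 5.43, 5.31 and 5.55 in DMSO and 5.27 and 5.12 in SAHA (log2 fold -0.23 ± 0.09, SE; adjusted p = 0.149 by limma). H2BC4 and H2BC17 were both dim, and the difference between partners was not tested. Probe sets listed for H2BC4 together with other H2B genes rose by 0.51, 0.67 and 0.63, and H2AC6 was read by a shared-sequence probe set. Whether these partners moved apart is therefore not settled. In the other pairs H2AC14 gave -0.12 beside H2BC14 at 0.19, and H2AC15 gave 0.01 beside H2BC15 at -0.01. H2BC3, which rose by 0.80, stands beside the pseudogene H2AC5P (0.11, not called).

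Promoter windows of 300 bases, 250 before the start site, were found for 51 of the 54 genes. A gene was counted where any of its windows held the letters. CCAAT stood in 36 of 41 replication-dependent and 8 of 10 variant genes, against 39.7% of the 27305 genes with a window. TATAAA stood in 28 of the 41 and 3 of the 10, against 14.0%. ATTTGCAT stood in 6 of 8 H2A and 10 of 13 replication-dependent H2B genes and in 0 of the H1, H3, H4 or variant genes, against 2.19% of all genes with a window. AAACACA stood in 6.94% of those genes and GGTCCG in 13.4%. The octamer did not separate the H2A and H2B genes by call, as it stood in 7 of 8 that rose and 9 of 13 not called, and H2BC5, with the highest fold, was the 1 without it. A match of letters is a description and not a site of binding.

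The variant histones moved in both directions. H2AX, whose protein is phosphorylated at DNA breaks and whose gene gives both a stem-loop and a polyadenylated message, had the largest fall of the 54 genes. It read 12.35, 12.34 and 12.39 on the DMSO arrays and 11.24 and 11.26 on the SAHA arrays, and fell by 1.11 ± 0.04 (SE; adjusted p = 0.000491 by limma). The arrays of a group agreed closely and the groups were far apart. A second probe set fell by 1.26 ± 0.10 (SE; adjusted p = 0.00370 by limma over all probe sets). The other 2 read -0.37 and -0.11 and were not called, and with all 4 averaged the log2 fold was -0.71. All 4 are shared-sequence probe sets.

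H1-10, the divergent linker variant H1X, read 9.76, 10.02 and 10.00 on the DMSO arrays and 10.60 and 10.81 on the SAHA arrays, a log2 fold of 0.78 ± 0.11 (SE; adjusted p = 0.00871 by limma). Both SAHA arrays were above DMSO, and the call ended without SAHA 2 (limma adjusted p = 0.0668). H2AJ, an H2A variant reported to accumulate in senescent cells, read 11.49, 11.62 and 11.72 in DMSO and 11.97 and 12.19 in SAHA, a log2 fold of 0.47 ± 0.10 (SE; adjusted p = 0.0277 by limma). The groups did not overlap, but the call ended whichever array was left out (limma adjusted p = 0.0595 to 0.126). Its other 3 probe sets read 0.08 to 0.46. Both genes were read by shared-sequence probe sets.

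The remaining variants were not called on their brightest probe set. H2AZ1, the main H2A.Z gene, read 14.10, 14.12 and 14.07 in DMSO and 14.05 and 13.73 in SAHA (log2 fold -0.20 ± 0.10, SE; adjusted p = 0.238 by limma), so 1 SAHA array lay just under DMSO and the other well under. Its second probe set, free of shared sequence, fell by 0.44 ± 0.07 (SE; adjusted p = 0.0208 by limma over all probe sets). H2AZ2, which encodes a near-identical H2A.Z protein, read 12.80, 12.81 and 12.57 in DMSO and 13.15 and 12.88 in SAHA (0.29 ± 0.12, SE; adjusted p = 0.164 by limma), while its other 3 probe sets ran from -0.29 to 0.16. The probe sets of H2AZ2 thus disagreed in sign.

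MACROH2A1, which encodes a large H2A variant with a macro domain, known from the inactive X chromosome, read 13.14, 13.18 and 13.21 in DMSO and 13.12 and 13.00 in SAHA (log2 fold -0.12 ± 0.06, SE; adjusted p = 0.221 by limma). Its other 6 probe sets ran from -0.14 to 0.41 and 0 were called. MACROH2A2 (-0.09), the oocyte linker H1-8 (0.02) and the testis linker H1-7 (-0.13) were dim and not called. H3-3A, one of the genes for the replacement histone H3.3, read 8.70, 8.70 and 8.93 in DMSO and 8.70 and 8.38 in SAHA (-0.24 ± 0.13, SE; adjusted p = 0.264 by limma). Both SAHA arrays lay below every DMSO array, SAHA 1 by little. Of 8 probe sets listed for H3-3A together with H3-3B, 3 fell, by 0.34, 0.32 and 0.34, and the other 5 read -0.10 to 0.14. The 3 that fell were among those listed also for MIR4738. The 4 listed with the pseudogene H3P6 were not called.

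Genes that serve histones were described beside them from lists drawn up with earlier results of these data known. Of 30 genes for histone chaperones and deposition, 17 fell and 1 rose, with a median log2 fold of -0.36. All but 1 of them were above the dim level, where 24.1% of all genes fell and 20.0% rose. NASP, which carries H3 and H4 dimers and also binds H1, read 12.10, 11.94 and 12.05 on the DMSO arrays and fell by 1.46 ± 0.06 (SE; adjusted p = 0.000609 by limma). It fell by 0.51 without shared-sequence probe sets. ASF1B, a chaperone of new H3 and H4, fell by 1.29 ± 0.04 (SE; adjusted p = 0.000491 by limma) and HJURP, the chaperone of the centromeric variant CENPA, by 1.14. CENPA is itself a histone and not a chaperone, but it was counted in the list. It fell by 0.80 on a shared-sequence probe set. The chromatin assembly factor subunits CHAF1B (-0.94) and CHAF1A (-0.83) fell, although CHAF1A gave -0.12 without shared-sequence probe sets (limma adjusted p = 0.379). DAXX, which deposits H3.3 with ATRX, rose by 0.26 and was named after its value was seen. Its call ended without DMSO 1, DMSO 2, DMSO 3 or SAHA 1, and its log2 fold was -0.12 under centring on the polyadenylated controls.

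Of 22 genes for making and decaying histone messages, 6 fell and 3 rose, with a median of -0.11. None was dim, and these shares lay near the 24.1% that fell and the 20.0% that rose among all genes above the dim level, so the counts say nothing particular of the list. SLBP, the stem-loop binding protein of replication-dependent messages, read 11.73, 11.72 and 11.72 on the DMSO arrays and fell by 0.57 ± 0.05 (SE; adjusted p = 0.00229 by limma). CTIF, which takes part in the translation and decay of histone messages, rose by 1.30 ± 0.10 (SE; adjusted p = 0.00156 by limma). SLBP and CTIF had no probe set free of shared sequence. CSTF2 (-0.72), CSTF3 (-0.65) and CASP8AP2 (-0.60) fell; these are cleavage factors and a histone locus body protein. CSTF3 gave -0.03 with its probe sets averaged, and CASP8AP2 gave -0.39 without shared-sequence probe sets (limma adjusted p = 0.333). The calls of CSTF2 ended without SAHA 1, of CSTF3 without SAHA 1 or SAHA 2, and of CASP8AP2 without DMSO 1, DMSO 3 or SAHA 2, and 3 genes of the list fell without DMSO 1, DMSO 3 or SAHA 2. NPAT, the activator of replication-dependent histone genes in S phase, was not called (0.15; limma adjusted p = 0.226).

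S phase genes moved with treatment and are given beside the replication-dependent class for that reason. Of 22 measured, none of them dim, 21 fell and 0 rose, where 24.1% and 20.0% of all genes above the dim level did, with a median log2 fold of -1.25, led by TYMS (-2.62), CCNE2 (-2.07), GINS2 (-1.93) and RRM2 (-1.72). GINS2 gave -0.12 without shared-sequence probe sets (limma adjusted p = 0.335). The median of the replication-dependent histone genes was -0.00, and 11 of the 44 rose. Unlike the S phase genes, 28 of these 44 were dim, and the median of the 28 was -0.05. The median of the 16 others, H2BC21 among them through its SAHA arrays, was 0.56. Shared-sequence probe sets read 9 of these 16. Among the called readings of members and of probe sets listed for several histone genes, few fell by more than 0.5 on the log2 scale. These were 2 probe sets for H2AX and the H4 probe set listed for 14 genes. CENPA, a histone outside the member list, fell by 0.80. The part of S phase gene levels in the histone values was not tested.

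**Figure D4:**
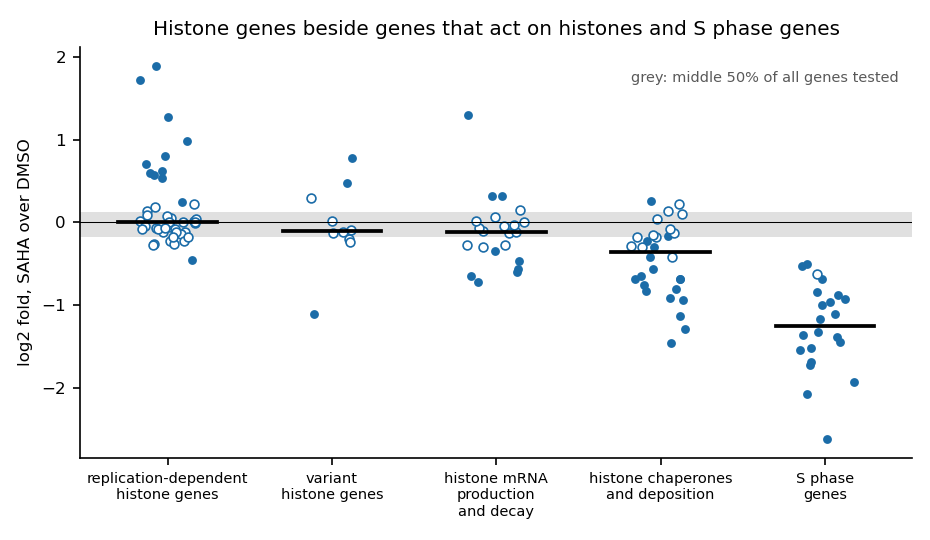
Log2 fold, SAHA over DMSO, of each gene (filled, adjusted p under 0.05; open, not called) in the 2 histone classes and in 3 lists of genes related to histone supply. Black bars are medians, and the grey band is the interquartile range of all 19775 genes. The medians are -0.00 and -0.11 for the histone classes, -0.11 and -0.36 for the lists of histone mRNA and chaperone genes, and -1.25 for S phase genes. Of the 44 replication-dependent genes 28 were dim, and of the 22 S phase genes 0 were.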

How the data were processed

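Gene expression was measured on 3 DMSO and 2 SAHA arrays. The authors deposited 1 intensity value per probe set on a linear scale, made with RMA in R 2.12 per the submitters' processing notes. RMA corrects background, makes the arrays' distributions alike by quantile normalization and summarises probes, so a shift of all transcripts in 1 direction is removed. The deposited intensities ran from 4.56 to 38935, and log2 was taken before any test, with no further normalization and no filter on level. The aligner or array software beyond this is not given in the sources used here, and the table holds no detection calls.

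Probe sets were named from GEO's platform annotation, and symbols were updated through gene identifiers in RefSeq (GRCh38.p14). Of 54675 probe sets, 62 were controls, 41091 had 1 gene, 1801 several and 11721 none listed. The probe set with the highest mean stood for its gene, which left 19775 genes.

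The comparison of SAHA with DMSO used limma 3.58.1 under R 4.3.3 (lmFit, then eBayes, two-sided, no covariates, 3 residual and 1.62 prior degrees of freedom). Benjamini-Hochberg adjustment ran over all genes, and a call needed adjusted p under 0.05. The same fit was run on simulated arrays in which few genes were changed by known folds. That run checks the code and does not bear on the calls here. Probe sets listed for several genes were fitted with all 54613 non-control probe sets, a step added once the data had been seen. Histone lists are described by counts and medians beside those of all genes.

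The rule named every variant gene, the 10 highest and 10 lowest folds among called replication-dependent genes, the gene with the highest signal in each family, a fixed panel, up to 4 called genes of each related list, and divergent partners. Other genes were named after their values were seen, to fill counts and ranges. Members and lists were chosen with earlier results of these data known. Alternatives covered scaling, dim genes, which probe set stood for a gene, array weights, a trended variance, the loss of each array, a replicate block and a threshold of 0.01. Figures were drawn with matplotlib 3.10.9.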

Additional observations from a re-analysis of the deposited data

How the results depend on the processing

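H1-2, H2AC6, H2BC5, H4C8 and H2AX kept their calls under every alternative that measured them; H2BC5, H2AC6 and H2AX have no probe set free of shared sequence. Over the 5 fits that each lack 1 array, 6 to 11 replication-dependent genes rose and 0 to 3 fell, 0 to 1 variant genes rose and 1 to 2 fell, 2 to 3 histone mRNA genes rose and 3 to 5 fell, 0 to 2 chaperone genes rose and 12 to 15 fell, 19 to 21 S phase genes fell, and the class medians were -0.02 to 0.00 and -0.11 to -0.038. Such fits have fewer degrees of freedom. Shares of all genes called are given here for the main fit only, so counts under the alternatives have no background beside them. Centring on the polyadenylated controls moved the median gene from -0.03 to -0.40. It gave 6 replication-dependent genes higher and 30 lower, 1 and 7 variant genes, 1 and 18 histone mRNA genes, and 0 and 27 chaperone genes, with class medians of -0.37 and -0.48. Shares of all genes called under this centring are not given here. It shifts the fold of every gene alike, so small positive folds turned negative. Among the genes named, H1-8 (-0.35), H2AC15 (-0.36), H2BC4 (-0.30) and H3C8 (-0.36) were then called lower. H2BC12 (-0.12), H2AZ2 (-0.08), H2BC14 (-0.19), NPAT (-0.23) and DAXX (-0.12) turned negative as well. Each array is moved by its own offset, so the spread within groups changed too. The limma adjusted p of TYMS was 4.42e-35 under this centring and 0.000341 in the main fit. Calls under it therefore need not come from the shift alone. Without shared-sequence probe sets 34 replication-dependent and 7 variant genes were measured. Of these 5 and 0 rose and 0 and 1 fell, 3 histone mRNA genes fell, 2 chaperone genes rose and 9 fell, and the variant median was 0.018. The labels do not say that replicate numbers pair the arrays, and same-numbered arrays deviated with correlations of 0.15 and -0.07. With the replicate number as a block, 6 replication-dependent genes rose and 0 fell, 1 histone mRNA gene rose and 2 fell, 0 chaperone genes rose and 9 fell, and the variant median was -0.038. Quantile normalization run again gave 2 replication-dependent genes lower and 2 chaperone genes higher. Centring on 58 ribosomal protein genes gave 4 and 0, with class medians of -0.046 and -0.15. Without dim genes these counts were 0 and 2, and the replication-dependent median was 0.56. Array weights left 0 replication-dependent genes lower. With probe sets averaged 2 variant genes fell, 2 chaperone genes rose and the variant median was -0.033. At adjusted p under 0.01, 0 replication-dependent genes fell, 1 variant gene rose, 3 histone mRNA genes fell and 0 chaperone genes rose. The cause of these moves was not tested. Where genes are dim, signal over background is unknown and limits what could be called.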
